A study of Mus musculus with 6 samples.

Results

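The genes examined were 40 genes of glucose metabolism, namely glucose transporters, the enzymes of glycolysis, the handling of lactate and pyruvate, the pentose phosphate pathway, and the galactose genes Galk1 and Galt. They were listed by gene name and role, with no value in the rule, although earlier results of these data were known when the list was drawn up. All 40 were among the 25690 gene symbols in the data and among the 15474 genes with enough counts to be tested. RNA-seq libraries came from CD27SP NK cells (NK1.1+CD27+CD11b-, isolated by flow cytometry), an immature subset of natural killer cells, taken from the BM of mice on a C57BL/6 background, which were matched for sex and age. 3 libraries were from Ncr1cre Myc wt/wt mice and 3 from Ncr1cre Myc fl/fl mice, carrying the numbers 1, 2 and 4 in each genotype, and the labels give no treatment. Both genotypes carried the Cre recombinase under the control of Ncr1, the gene of NKp46, so the floxed Myc alleles are lost only once an NK cell begins to express NKp46, and this subset is the earliest in which they are lost. The libraries were full-length cDNA libraries made from very little RNA and read from a single end. The sources used here do not say whether each library came from a separate mouse, so the p-values measure the spread between these libraries, which may in part be technical.

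Glycolysis splits glucose into pyruvate and yields ATP and NADH. In the cytosol, lactate dehydrogenase turns pyruvate into lactate, which leaves the cell through monocarboxylate transporters, whereas pyruvate that enters mitochondria feeds the tricarboxylic acid cycle through pyruvate dehydrogenase. The pentose phosphate pathway branches from glucose 6-phosphate and supplies NADPH and ribose, and NK cells raise glycolysis when cytokines such as IL-15 activate them. MYC is a transcription factor that binds DNA together with MAX at the E-box CACGTG, and several glycolytic genes are among its known targets.

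Total counts ran from 54550907 to 64962491 in 5 libraries and were 8101219 in wt/wt library 1, which is therefore the least precise of the 6. Myc itself read 200.5, 183.4 and 164.3 CPM (counts relative to the total of the library, scaled between libraries by the TMM method) in wt/wt libraries 1, 2 and 4 and 61.5, 64.6 and 76.5 CPM in the fl/fl libraries. The fl/fl mean was 37.0% of the wt/wt mean by the fitted fold change, with a log2 fold change of -1.44 ± 0.15 (SE, adjusted p = 0.00189, edgeR), and the reads were summed over the whole gene, without setting the deleted part apart. The NK cell genes Ncr1, Klrb1c and Eomes were present in all 6 libraries, and Itgam, which encodes CD11b, was low at 11.1 to 15.2 TPM (a relative abundance corrected for transcript length, on which genes can be compared). Markers of other cells moved with genotype as well. The summed TPM of 10 basophil and mast cell markers was 36.0 to 39.7 in wt/wt and 199.0 to 507.8 in fl/fl libraries, and that of 13 neutrophil markers was 73.3 to 154.5 and 533.5 to 893.6. For 8 markers of dividing cells it was 818.0 to 1023 in wt/wt and 424.1 to 608.2 in fl/fl libraries. Summed TPM of 4 platelet markers (7.94 to 21.5 and 35.6 to 116.7) was higher in fl/fl libraries as well, while that of T cell markers overlapped. The dendritic cell sum overlapped too, but most of it was Bst2, at means of 42.1 TPM in wt/wt and 46.3 TPM in fl/fl libraries. All 6 dendritic cell markers had log2 fold changes above 0, with a median of 1.32, and 1 was called higher. The sum of 12 NK cell markers, none of them called, was 18150 to 20184 TPM in wt/wt and 22629 to 24277 TPM in fl/fl libraries. Mitochondrial transcripts held 1.77% to 2.29% of TPM in wt/wt and 1.32% to 1.67% in fl/fl libraries. The part of these shifts in the results below was not tested. In such bulk libraries, fewer cells of one type and less RNA per cell cannot be told apart, and all values are relative to the other RNA of the same library.

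Among the 40 genes, Slc16a1, the lactate transporter MCT1, and Galk1, the galactokinase, fell in fl/fl libraries, to 46.7% and 46.4% of their wt/wt level. None of the 40 was called higher. A gene was called when its adjusted p (Benjamini-Hochberg over all 15474 genes, edgeR's quasi-likelihood test) was below 0.01 and its log2 fold change at least 0.5 in size. The 2 genes called lower are 5% of the list, against 0.872% of all tested genes called lower and 1.28% called higher. At an adjusted p below 0.05 alone, Eno3 joined the lower genes, which made 3 of 40 against 3.38% of all genes, and Hk3 was the only gene higher, against 4.45% of all genes. At an unadjusted p below 0.05, 9 of the 40 were lower and 6 higher, against 10.2% and 12.4% of all genes. DESeq2 at the first threshold called 3 of the 40 lower and 1 higher (3.54% and 4.17% of all genes), and limma-trend called 1 lower and 0 higher (0.504% and 0.931% of all genes). The largest adjusted p of the 3 tools left 1 called lower, Galk1, against 0.504% of all genes. Without the library number as a block, edgeR called the same 2 genes lower and none higher, against 1.19% and 1.31% of all genes. At an adjusted p below 0.05, that fit had 6 of the 40 lower and 3 higher, against 4.47% and 5.14% of all genes.

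The log2 fold change was below 0 in 27 of the 40 genes (67.5%), against 48.5% of all tested genes, with a median of -0.17 for the list and 0.01 for all genes. In CPM, every fl/fl library read lower than every wt/wt library in 15 of the 40 (37.5%), against 15.1% of all genes, and higher in 6 of the 40 (15%), against 16.2%. In TPM, 9 of the 40 were lower (22.5%, against 10.9% of all genes) and 9 higher (22.5%, against 19.2%). Gpi1, Pfkp, Tpi1, Gapdh, Pgam1 and Hk2 were lower without overlap in CPM only, and Pfkl, Aldoa and Ldhb were higher without overlap in TPM only. In CPM, the genes with all fl/fl libraries lower included 5 of the 6 genes of lower glycolysis, and those with all fl/fl libraries higher were both glucose transporters, 2 of the 3 hexokinases, Slc16a3 and Galt. With 3 libraries against 3 an exact permutation test of a single gene cannot go below p = 0.1, so such separation is a description.

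**Figure D1:**
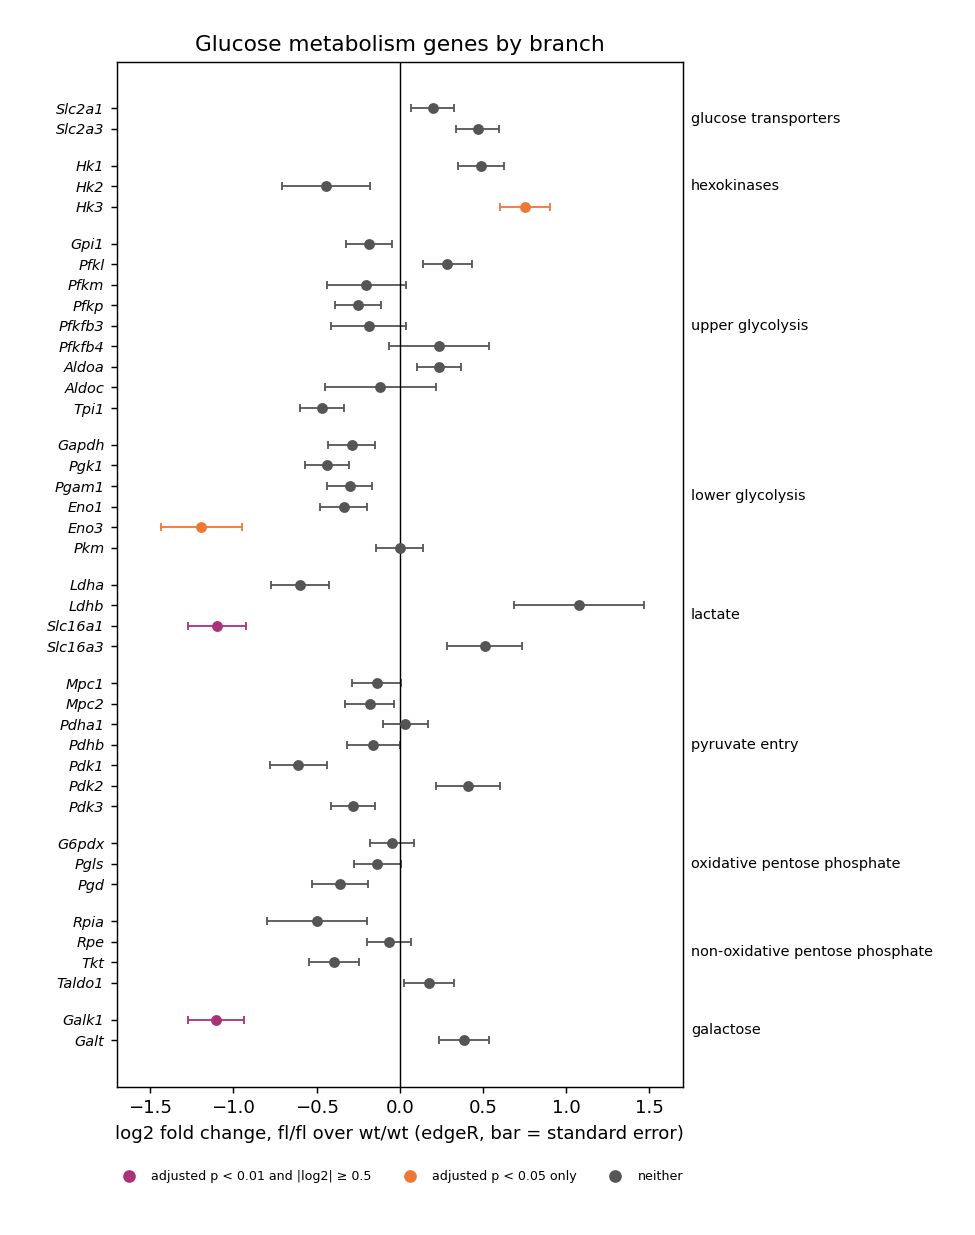
The log2 fold change (fl/fl over wt/wt, horizontal axis) of each of the 40 genes, grouped by branch, with bars of 1 SE from the edgeR fit over 6 libraries. Slc16a1, Galk1 and Eno3 lie lowest, at -1.10, -1.11 and -1.19, with the 2 called genes in purple and the 2 with an adjusted p below 0.05 only (Eno3 and Hk3) in orange.

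In the lactate branch the called change was in export. Slc16a1 (chr3:104638668-104658462, plus strand, GRCm38, ENSMUSG00000032902.1) encodes a transporter that carries lactate and pyruvate with a proton across the plasma membrane. It read 60.8, 57.4 and 48.9 CPM in wt/wt libraries 1, 2 and 4 and 22.8, 25.1 and 30.1 CPM in the fl/fl libraries. The groups did not overlap, and the highest fl/fl library stood well under the lowest wt/wt library. The log2 fold change was -1.10 ± 0.17 (SE), a level of 46.7% of wt/wt (adjusted p = 0.00677, edgeR). The direction held in all 15 other processing settings, with log2 fold changes from -1.32 to -0.95, but the adjusted p rose to 0.0343 without the libraries numbered 1, to 0.0218 without those numbered 2 and to 0.0107 in limma-trend. It was also above 0.01 with scaling by library size alone (0.0137) and with effective-length offsets (0.0233).

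The other exporter, Slc16a3, encodes MCT4, which is known for lactate release from highly glycolytic cells. It stood at 6.50, 6.40 and 7.34 CPM in wt/wt and at 8.95, 8.29 and 11.8 CPM in fl/fl libraries, so that all fl/fl values were the higher ones (log2 fold change 0.51 ± 0.22 SE, adjusted p = 0.213, edgeR). The make-up of the pair differed between genotypes, although only the change of Slc16a1 was called. Slc16a1 held 80.0%, 76.1% and 72.1% of the summed TPM of both transporters in wt/wt libraries and 48.2%, 53.0% and 45.7% in fl/fl libraries. The mean share was 76.1% ± 3.93 against 49.0% ± 3.72 (SD, n = 3 each), without overlap, and over protein-coding transcripts alone 76.4% ± 3.96 against 49.5% ± 3.34.

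Ldha encodes the A chain of lactate dehydrogenase, which favours the making of lactate, and it was among the most abundant genes of the list at 1346 ± 120.7 TPM in wt/wt and 968.1 ± 146.6 TPM in fl/fl libraries (SD, n = 3 each). It read 1668, 1352 and 1292 CPM in wt/wt libraries and 783.7, 970.9 and 1100 CPM in fl/fl libraries. All fl/fl libraries were lower, at 66.0% of wt/wt by the fit (log2 fold change -0.60 ± 0.18 SE), yet the gene missed the threshold (adjusted p = 0.0700, edgeR), and wt/wt library 1 and fl/fl library 1 formed the widest pair. Without the libraries numbered 1 the log2 fold change was -0.36. Ldhb, the B chain, was scarce at 0.52, 1.47 and 2.72 CPM in wt/wt and 2.57, 2.89 and 3.92 CPM in fl/fl libraries, which overlapped (log2 fold change 1.08 ± 0.39 SE, adjusted p = 0.134, edgeR). The B chain made up 0.171% ± 0.101 of lactate dehydrogenase TPM in wt/wt and 0.478% ± 0.0493 in fl/fl libraries, so that nearly all of it was Ldha in both genotypes.

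Galk1 (chr11:116008457-116012719, minus strand, ENSMUSG00000020766.4) encodes the kinase that phosphorylates galactose, the entry step of the Leloir route by which galactose joins glycolysis. It read 80.7, 63.7 and 60.2 CPM in wt/wt libraries 1, 2 and 4 and 28.9, 30.0 and 35.5 CPM in fl/fl libraries. Every fl/fl library was below every wt/wt library, and the fl/fl values lay close together. The log2 fold change was -1.11 ± 0.17 (SE), or 46.4% of wt/wt (adjusted p = 0.00579, edgeR), the smallest adjusted p of the list. It ranged from -1.30 to -0.93 over the 15 other settings, and the adjusted p was above 0.01 without the libraries numbered 1 (0.0272), without those numbered 2 (0.0148), with library size alone (0.0119) and with effective-length offsets (0.0200).

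Galt encodes the uridylyltransferase of the next step in the same route. Its values were 28.5, 28.1 and 29.2 CPM in wt/wt and 34.8, 37.8 and 39.6 CPM in fl/fl libraries. These did not overlap, in the direction opposite to Galk1 (log2 fold change 0.39 ± 0.15 SE, adjusted p = 0.162, edgeR).

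The stretch of 250 bases before a RefSeq start was read for the E-box CACGTG, a palindrome that is the same on both strands. It is shown for the 2 called genes and for Ldha, with the E-box in capitals, 5′ to 3′ on the strand of the gene, from RefSeq on GRCm38.p6. The windows are chr11:116012720-116012969 for Galk1, chr3:104638414-104638663 for Slc16a1 and chr7:46845554-46845803 for Ldha. RefSeq gives 2 starts for Ldha, and the window shown, the one with the E-box, lies inside the GENCODE span of the gene (chr7:46841475-46855627).
Galk1: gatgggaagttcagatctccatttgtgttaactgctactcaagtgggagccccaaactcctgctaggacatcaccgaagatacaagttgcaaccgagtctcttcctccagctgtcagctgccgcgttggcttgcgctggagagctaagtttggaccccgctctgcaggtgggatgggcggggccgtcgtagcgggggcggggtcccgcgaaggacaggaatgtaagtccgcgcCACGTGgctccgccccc
Slc16a1: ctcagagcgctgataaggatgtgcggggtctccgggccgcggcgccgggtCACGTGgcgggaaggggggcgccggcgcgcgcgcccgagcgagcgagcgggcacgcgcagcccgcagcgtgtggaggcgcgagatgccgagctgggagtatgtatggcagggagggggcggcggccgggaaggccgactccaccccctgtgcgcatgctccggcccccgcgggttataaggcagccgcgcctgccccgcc
Ldha: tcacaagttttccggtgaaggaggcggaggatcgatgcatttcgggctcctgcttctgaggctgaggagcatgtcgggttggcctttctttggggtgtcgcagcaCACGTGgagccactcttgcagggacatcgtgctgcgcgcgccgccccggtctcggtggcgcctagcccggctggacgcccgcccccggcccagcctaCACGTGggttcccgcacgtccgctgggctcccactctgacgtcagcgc

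The E-box began 17 bases before the RefSeq start of Galk1, 200 bases before that of Slc16a1, and 145 and 48 bases before this start of Ldha, whose window held 2 copies. Of the 39 genes of the list with a RefSeq promoter entry, 7 had at least one CACGTG (17.9%), namely Galk1, Galt, Ldha, Pdk2, Pfkfb3, Pfkm and Slc16a1. The same was true of 9.18% of 10886 tested genes with an entry and of 6.02% of 32851 promoter windows in the genome. The 7 genes did not move together. Galk1, Slc16a1 and Ldha had the lowest log2 fold changes among them, Pfkfb3 (-0.19) and Pfkm (-0.20) lay near the median of the list, and Galt (0.39) and Pdk2 (0.41) lay above 0. Their median was -0.20, against -0.15 for the 32 genes without the motif. Eno3, with the lowest log2 fold change of the list, had no CACGTG in this window. A match describes these letters only and does not show binding.

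**Figure D2:**
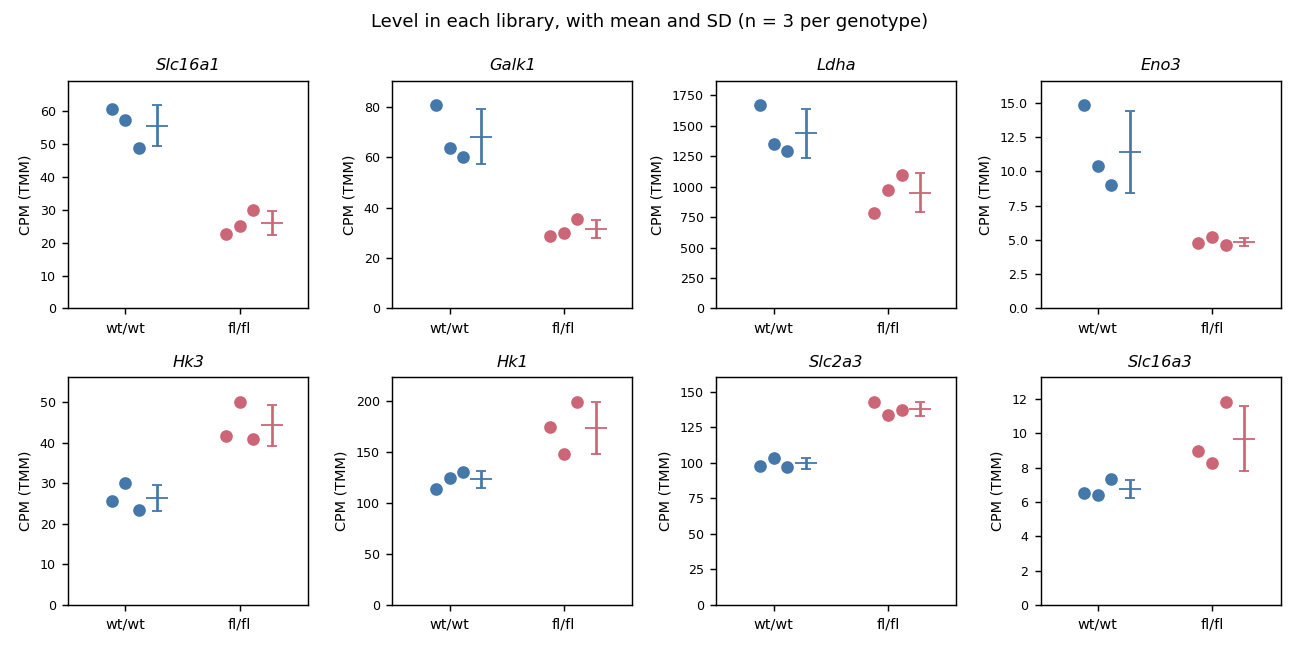
CPM in each library (vertical axes from 0, points for wt/wt in blue and fl/fl in red, with mean and SD, n = 3 per genotype) for Slc16a1, Galk1, Ldha and Eno3, which read lower, and Hk3, Hk1, Slc2a3 and Slc16a3, which read higher in fl/fl libraries. The fl/fl points of Slc16a1 (22.8 to 30.1 CPM) and Galk1 (28.9 to 35.5 CPM) lie below all wt/wt points.

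Among the 5 genes of glucose uptake and phosphorylation, 4 read higher in fl/fl libraries and none was called. Slc2a3 encodes GLUT3, a glucose transporter of high affinity. It read 97.6, 103.7 and 97.3 CPM in wt/wt libraries and 142.9, 133.4 and 136.8 CPM in fl/fl libraries. In CPM the groups were well apart (log2 fold change 0.47 ± 0.13 SE), but the adjusted p was 0.0599 (edgeR). In TPM they were close, with a highest wt/wt value of 48.7 and a lowest fl/fl value of 50.4. With effective-length offsets the log2 fold change of Slc2a3 was 0.28 (adjusted p = 0.283, edgeR). Slc2a1 encodes GLUT1, the transporter of basal uptake in many cells, and it read 75.6, 83.2 and 78.1 CPM in wt/wt and 86.5, 93.8 and 91.3 CPM in fl/fl libraries (log2 fold change 0.20 ± 0.13 SE, adjusted p = 0.418, edgeR). Slc2a1 held 53.8% ± 5.20 of the summed TPM of the pair in wt/wt and 52.7% ± 2.73 in fl/fl libraries. Over protein-coding transcripts alone it held less than Slc2a3, at 42.2% ± 7.06 and 40.4% ± 2.61, and the genotypes overlapped on both scales.

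Hexokinases trap glucose in the cell by phosphorylation. Hk3, a form found mainly in myeloid and other blood cells, read 25.7, 30.0 and 23.4 CPM in wt/wt and 41.8, 50.1 and 41.0 CPM in fl/fl libraries. All fl/fl libraries were higher, at 168.4% of wt/wt by the fit (log2 fold change 0.75 ± 0.15 SE, adjusted p = 0.0166, edgeR), which misses 0.01. It passed in DESeq2 (0.00011) and without the filter on low counts (0.00397). The TPM of its protein-coding transcripts alone was 9.63 to 14.5 in wt/wt and 13.9 to 18.9 in fl/fl libraries, with overlap. The markers of myeloid cells moved in the same direction, with 4 of 12 tested neutrophil markers, 4 of 10 monocyte and macrophage markers and 9 of 10 basophil and mast cell markers called higher, none of which was at 0 in every library. Summed monocyte and macrophage TPM was 953.7 to 1117 in wt/wt and 1391 to 1702 in fl/fl libraries. Their part in the level of Hk3 and of the other genes that read higher was not tested.

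Hk1, the widely expressed hexokinase, was the main form and read 113.8, 124.8 and 130.6 CPM in wt/wt and 175.0, 147.5 and 198.5 CPM in fl/fl libraries. Its groups did not overlap (log2 fold change 0.49 ± 0.14 SE, adjusted p = 0.0663, edgeR). Hk2, the form induced in growing cells and bound to mitochondria, was scarce, at 5.20 to 7.30 CPM in wt/wt and 3.64 to 5.04 CPM in fl/fl libraries (log2 fold change -0.44, adjusted p = 0.373, edgeR). Hk2 held 3.05% ± 0.668 of hexokinase TPM in wt/wt and 1.36% ± 0.354 in fl/fl libraries without overlap, whereas the shares of Hk1 and Hk3 overlapped between genotypes. Reads of Hk1 and Hk3 could include those of Hk1os and Unc5a, whose exons lie on the other strand.

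In upper glycolysis, which runs from glucose 6-phosphate to the triose phosphates, none of the 9 genes was called and the directions were mixed. Tpi1, the isomerase that joins the triose phosphates, came closest, at 234.4, 276.6 and 293.6 CPM in wt/wt and 182.8, 195.8 and 200.7 CPM in fl/fl libraries. The fl/fl values were all lower (log2 fold change -0.47 ± 0.13 SE, adjusted p = 0.0593, edgeR). Aldoa, the main aldolase, read 387.0, 436.1 and 444.1 CPM in wt/wt and 423.1, 511.6 and 568.3 CPM in fl/fl libraries, which overlapped (log2 fold change 0.24 ± 0.13 SE, adjusted p = 0.330, edgeR). Its relative Aldoc stayed below 4 CPM in every library and held under 1% of aldolase TPM. Gpi1, which converts glucose 6-phosphate to fructose 6-phosphate, and Pfkp, the platelet-type 6-phosphofructokinase, were lower in every fl/fl library by small amounts (log2 fold changes -0.19 and -0.25, adjusted p = 0.480 and 0.322, edgeR).

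The 6-phosphofructokinases carry out the committed step of glycolysis. Pfkp made up 83.4% ± 2.35 of their TPM in wt/wt and 78.8% ± 2.29 in fl/fl libraries, and Pfkl, the liver type, 15.7% ± 2.42 and 20.2% ± 2.22. Both shares overlapped between genotypes over all transcripts and did not over protein-coding ones (Pfkl 15.3% ± 2.72 and 20.1% ± 1.04). Pfkm, the muscle type, held 0.957% and 0.935% over all transcripts and 1.62% and 1.61% over protein-coding ones (wt/wt and fl/fl). The log2 fold changes of Pfkl and Pfkm were 0.29 and -0.20 (adjusted p = 0.298 and 0.690, edgeR), and 0.16 and -0.06 without the libraries numbered 1. Pfkfb3 and Pfkfb4, which set the level of the activator fructose 2,6-bisphosphate, were scarce and overlapped, at log2 fold changes of -0.19 and 0.24 (adjusted p = 0.698 and 0.717, edgeR).

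Lower glycolysis, from glyceraldehyde 3-phosphate to pyruvate, had log2 fold changes below 0 in 5 of its 6 genes and near 0 in Pkm, with a median of -0.32. The same 5 read lower in CPM in every fl/fl library than in any wt/wt library (15.1% of all genes did). In TPM this held for Pgk1, Eno1 and Eno3, while Gapdh and Pgam1 overlapped. No gene of the branch passed the threshold. Eno3, the muscle form of enolase, read 14.8, 10.4 and 9.04 CPM in wt/wt and 4.76, 5.18 and 4.66 CPM in fl/fl libraries. The wt/wt values were spread and the fl/fl values tight, with no overlap (log2 fold change -1.19 ± 0.24 SE, 43.8% of wt/wt, adjusted p = 0.0190, edgeR). DESeq2 gave 0.000115 and the fit without the filter on low counts 0.00470, while leaving out the libraries numbered 1 gave 0.0803. Eno3 was only 0.898% ± 0.0286 of enolase TPM in wt/wt and 0.556% ± 0.0508 in fl/fl libraries.

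Gapdh, the dehydrogenase that produces NADH, had the highest mean TPM of the branch over the 6 libraries, while Eno1 was higher in CPM. It read 1270.0, 1276 and 1259 CPM in wt/wt libraries and 893.5, 1086 and 1153 CPM in fl/fl libraries. The wt/wt values lay close together and all fl/fl values below them, with fl/fl library 1 the lowest (log2 fold change -0.29 ± 0.14 SE, adjusted p = 0.263, edgeR). Pgk1 and Pgam1 encode the kinase and the mutase of the next steps. Pgk1 was 137.7 to 164.7 CPM in wt/wt and 106.2 to 130.5 CPM in fl/fl libraries (log2 fold change -0.44, adjusted p = 0.0810, edgeR). Pgam1 was 321.3 to 327.9 CPM in wt/wt and 234.8 to 294.2 CPM in fl/fl libraries (log2 fold change -0.30, adjusted p = 0.225, edgeR). Summed TPM of the 8 markers of dividing cells was lower in all fl/fl libraries too, with 2 of the 8 called lower, and its part in these values was not tested.

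Eno1, the main enolase, read 2021, 1541 and 1488 CPM in wt/wt and 1368, 1382 and 1216 CPM in fl/fl libraries (log2 fold change -0.34, adjusted p = 0.196, edgeR). The log2 fold change was -0.22 without the libraries numbered 1, -0.21 without wt/wt library 1 and the block, and -0.53 with effective-length offsets. In wt/wt library 1, which has the fewest counts, 2 short transcripts of the gene were given 925.9 TPM (Eno1-206) and 405.1 TPM (Eno1-210), whereas the other 5 libraries had at most 7.56 and 3.58 TPM of them. The transcripts were picked out after their values were seen. The transcript Eno1-202 alone was at 1093, 1263 and 1184 TPM in wt/wt and 1179, 1162 and 1028 TPM in fl/fl libraries, which overlapped.

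Pkm, pyruvate kinase, ends the pathway and was close to even between the genotypes, at 895.9 to 977.3 CPM in wt/wt and 832.9 to 1069 CPM in fl/fl libraries (log2 fold change -0.0011 ± 0.14 SE, adjusted p = 0.998, edgeR). Its sign turned in 6 of the other settings. Its transcripts use one or other of a pair of exons of 167 bases each, at chr9:59675029-59675195 for the M1 form of differentiated tissues and at chr9:59675568-59675734 for the M2 form of growing cells. M2 made up 86.2%, 94.7% and 94.5% of the TPM of both forms in wt/wt and 92.1%, 90.6% and 89.7% in fl/fl libraries. The form was therefore mainly M2 in every library, and the genotypes overlapped.

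Pyruvate reaches the mitochondrial matrix through the carrier made of Mpc1 and Mpc2 and is oxidised by pyruvate dehydrogenase, whose kinases switch it off. Pdk1, one of these kinases, read 78.7, 58.1 and 65.5 CPM in wt/wt and 41.2, 51.9 and 39.2 CPM in fl/fl libraries. All fl/fl libraries were lower (log2 fold change -0.61 ± 0.17 SE, adjusted p = 0.0599, edgeR). Pdk3 was 71.8 to 80.3 CPM in wt/wt and 58.0 to 66.0 CPM in fl/fl libraries, also without overlap (log2 fold change -0.28, adjusted p = 0.246, edgeR), and Pdk2 overlapped with a log2 fold change of 0.41 (adjusted p = 0.244, edgeR).

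Over all transcripts, Pdk1 held 37.0% ± 3.05 of their TPM in wt/wt and 29.5% ± 1.95 in fl/fl libraries, and Pdk2 16.2% ± 2.04 and 25.0% ± 3.05, both without overlap (SD, n = 3 each). Most Pdk1 TPM lay in transcripts annotated as not coding for protein, and over protein-coding transcripts alone, an alternative chosen after seeing the data, the Pdk1 share was 6.98% ± 0.701 and 6.21% ± 0.420, with overlap. The coding Pdk1 TPM overlapped too, at 4.29 to 5.05 in wt/wt and 3.43 to 4.69 in fl/fl libraries. The Pdk2 share of coding TPM was 20.5% ± 3.69 in wt/wt and 30.2% ± 2.02 in fl/fl libraries and that of Pdk3 72.5% ± 3.92 and 63.6% ± 2.36, both without overlap. The carrier and the dehydrogenase itself showed little. Mpc1, the most abundant gene of this branch in TPM, was 129.3, 122.1 and 145.8 CPM in wt/wt and 115.0, 133.5 and 112.3 CPM in fl/fl libraries, which overlapped (log2 fold change -0.14 ± 0.14 SE, adjusted p = 0.641, edgeR). Mpc2, Pdha1 and Pdhb, the last 2 being the chains of the E1 component, had log2 fold changes of -0.18, 0.03 and -0.16 (adjusted p = 0.535, 0.926 and 0.628, edgeR), each with overlapping groups.

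**Figure D3:**
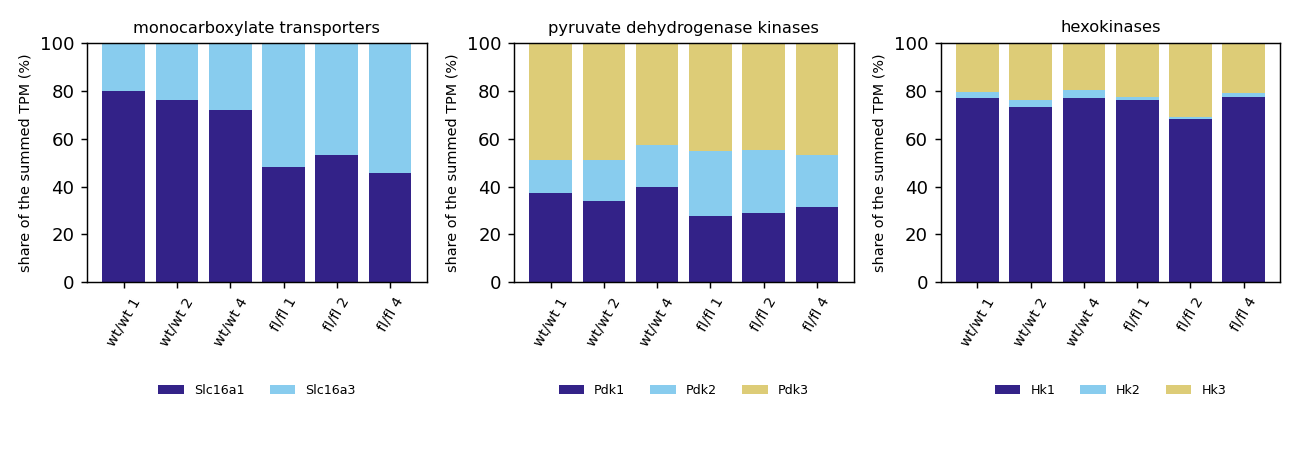
Share of each gene in the summed TPM of its family (percent, vertical axis) in each of the 6 libraries, as stacked bars, for the monocarboxylate transporters, the pyruvate dehydrogenase kinases and the hexokinases. The Slc16a1 share lies at 72.1% to 80.0% in wt/wt and 45.7% to 53.0% in fl/fl libraries, whereas the shares of Hk1 and Hk3 overlap.

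None of the 7 pentose phosphate genes was called, and none of the 3 oxidative genes separated the genotypes. Pgd, the dehydrogenase that makes ribulose 5-phosphate and NADPH, read 87.3, 107.6 and 110.0 CPM in wt/wt and 81.2, 60.3 and 99.7 CPM in fl/fl libraries, with overlap (log2 fold change -0.36 ± 0.17 SE, adjusted p = 0.244, edgeR). Pgls, the lactonase of the middle step, read 49.8, 67.4 and 69.6 CPM in wt/wt and 52.9, 58.5 and 57.3 CPM in fl/fl libraries, with wt/wt library 1 the lowest of all (log2 fold change -0.14 ± 0.14 SE, adjusted p = 0.641, edgeR). G6pdx, which encodes the entry enzyme glucose 6-phosphate dehydrogenase, had a log2 fold change of -0.04 (adjusted p = 0.897, edgeR).

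The non-oxidative part links ribose 5-phosphate back to glycolysis. Tkt, a transketolase, read 149.4, 199.7 and 204.4 CPM in wt/wt and 137.0, 124.6 and 157.5 CPM in fl/fl libraries. Only wt/wt library 1 lay inside the fl/fl range (log2 fold change -0.40 ± 0.15 SE, adjusted p = 0.144, edgeR). Most Tkt TPM lay in Tkt-209, a transcript annotated as not coding for protein, at means of 72.5% in wt/wt and 82.6% in fl/fl libraries. Taldo1, the transaldolase, read 166.7, 177.2 and 194.3 CPM in wt/wt and 224.9, 211.1 and 174.7 CPM in fl/fl libraries, which overlapped (log2 fold change 0.18 ± 0.15 SE, adjusted p = 0.558, edgeR). Rpia, the ribose 5-phosphate isomerase, was scarce and lower in every fl/fl library, at 3.37 to 5.46 CPM in wt/wt and 3.01 to 3.31 CPM in fl/fl libraries (log2 fold change -0.50, adjusted p = 0.376, edgeR). Rpe, the epimerase of ribulose 5-phosphate, had a log2 fold change of -0.07 (adjusted p = 0.841, edgeR).

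Summed over each branch, TPM separated the genotypes in 5 of the 9 branches. Among all tested genes taken singly, TPM was lower without overlap in 10.9% and higher in 19.2%. No such share was computed for sums of genes. Glucose transporters were 93.4 ± 2.62 TPM in wt/wt and 116.8 ± 6.19 TPM in fl/fl libraries, and hexokinases 67.7 ± 6.28 and 107.0 ± 9.51 TPM (SD, n = 3 each), both higher without overlap. Lower glycolysis was 4391 ± 773.5 TPM in wt/wt and 3611 ± 208.9 TPM in fl/fl libraries, the lactate genes 1369 ± 120.4 and 988.7 ± 150.3 TPM, and the galactose genes 121.8 ± 8.45 and 97.5 ± 7.68 TPM, all lower without overlap. Without the libraries numbered 1, the difference in lower glycolysis was -224.6 TPM in place of -779.5, and that in the lactate genes -242.1 TPM in place of -380.4. The gap in lower glycolysis rested partly on the short Eno1 transcripts of wt/wt library 1. With Eno1-202 alone counted for Eno1, an alternative chosen after seeing the data, the branch was 3906 ± 111.7 TPM in wt/wt and 3579 ± 210.0 TPM in fl/fl libraries, still without overlap but with a highest fl/fl value of 3758 TPM against a lowest wt/wt value of 3793 TPM. Upper glycolysis, pyruvate entry and both parts of the pentose phosphate pathway overlapped. Genes of a branch did not all follow its sum. Ldha held most of the lactate sum, at means of 1346 TPM in wt/wt and 968.1 TPM in fl/fl libraries. Ldhb and Slc16a3 were higher in fl/fl libraries. Mean Galk1 was 80.4 TPM in wt/wt and 40.9 TPM in fl/fl libraries, while Galt was 41.4 and 56.6 TPM. Hk2 was lower on average in fl/fl libraries, unlike Hk1 and Hk3.

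**Figure D4:**
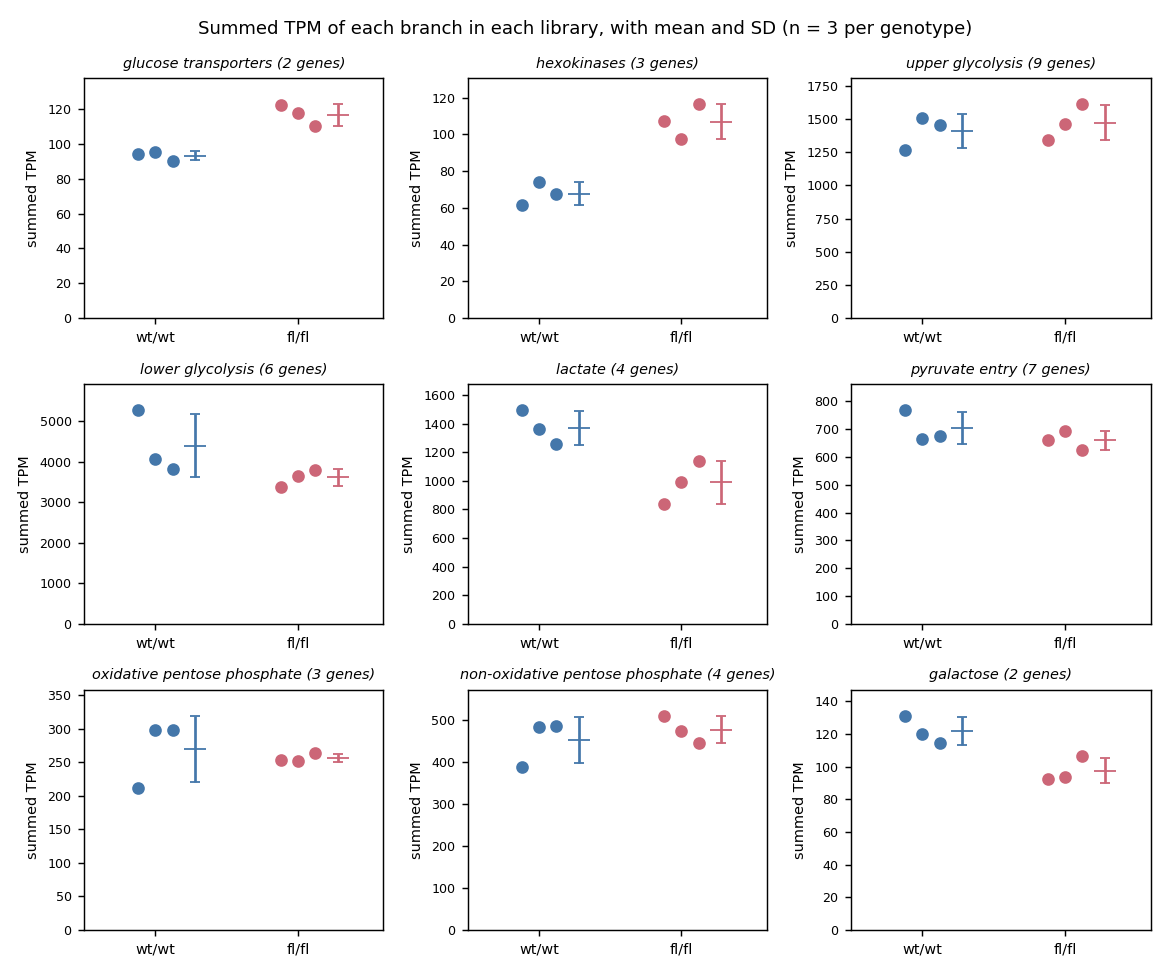
Summed TPM of the genes of each of 9 branches in each library (vertical axes from 0, with mean and SD, n = 3 per genotype). The sums of glucose transporters and hexokinases lie higher in fl/fl libraries and those of lower glycolysis, lactate and galactose genes lower. The sums of the other 4 branches overlap. Some genes went against the sum of their branch, such as Galt, Ldhb and Slc16a3, and Hk2 on average.

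A further 69 genes of sugar metabolism, among them other isozymes, gluconeogenic enzymes, glycogen enzymes and regulators of the pathway, were listed, of which 57 had enough counts. None was called by edgeR. At an unadjusted p below 0.05, 2 of the 57 were lower (3.51%, against 10.2% of all genes) and 9 higher (15.8%, against 12.4%). At an adjusted p below 0.05, 0 were lower (against 3.38%) and 3 were higher (5.26%, against 4.45%), namely Pklr, H6pd and Arrdc4, which are named here because their values were seen. H6pd encodes a glucose 6-phosphate dehydrogenase of the endoplasmic reticulum, and it read 20.0, 27.2 and 20.3 CPM in wt/wt and 39.6, 35.8 and 40.9 CPM in fl/fl libraries (log2 fold change 0.79 ± 0.18 SE, adjusted p = 0.0281, edgeR). Arrdc4, a relative of Txnip that limits glucose uptake, read 8.57, 8.67 and 10.7 CPM in wt/wt and 15.5, 15.9 and 21.4 CPM in fl/fl libraries (log2 fold change 0.91 ± 0.19 SE, adjusted p = 0.0225, edgeR).

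Pklr encodes the pyruvate kinase of liver and red cells. It was at 0, 0 and 0.0611 CPM in wt/wt and at 0.306, 0.622 and 1.06 CPM in fl/fl libraries (adjusted p = 0.0132, edgeR), and no fold is given because wt/wt counts were at or near 0. The summed TPM of 8 erythroid markers was 730.3 to 1462 in wt/wt and 2570.0 to 4421 in fl/fl libraries, with 1 of the 8 called higher, and its part in the Pklr reads was not tested. The median log2 fold change of the 57 genes was 0.05, with 25 below 0 and 32 above.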

How the data were processed

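The libraries were quantified by the authors, who deposited estimated counts, TPM values and effective lengths for each of 100583 mouse transcripts. Salmon and GRCh38, a human build, are named as the quantifier and reference, whereas the columns follow kallisto's layout and the transcripts are murine. The authors' TPM values are relative abundances corrected for effective length. Some effective lengths exceed the annotated length, and the correction behind them is not given in the sources used here. Kits of this kind do not mark strand.

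The counts of all transcripts with one symbol in GENCODE M21 were added up (100239 transcripts matched, with 0.129% to 0.169% of counts left out) and rounded to whole numbers. Genes were kept by filterByExpr with default settings, scaled by TMM and compared with edgeR (4.0.16, R 4.3.3) in a quasi-likelihood test over 6 libraries with the library number as a block, since the study calls its comparison paired. DESeq2 (1.42.0) and limma-trend (3.58.1) were alternatives, with other scalings, filters and left-out libraries. The edgeR, DESeq2 and limma-trend fits were tested on simulated gene counts, whereas the summing per symbol, the TPM shares and sums and the promoter reading were not.

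All 40 genes are named. Values in every library are given for those past the threshold, with the smallest adjusted p or with the highest mean TPM in their branch, and for a few others where a comparison turns on them. The members, lists, tests and rules were chosen with earlier results of these data known. One marker list is not reported here.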

Additional observations from a re-analysis of the deposited data

How the results depend on the processing

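No shared effect of the library numbers was seen, although the study calls its comparison paired: deviations from the genotype mean correlated at -0.0121, -0.0198 and 0.0505 between libraries 1, 2 and 4 of the genotypes (15474 genes). Without the replicate block the counts of genes were 184 lower and 203 higher (135 and 198 with it), Slc16a1 and Galk1 were called as before, and no call of the 40 genes at 0.01 changed. At an adjusted p below 0.05, 6 of the 40 were lower (4.47% of all genes) and 3 higher (5.14%) without the block, with Tpi1 (0.0360), Ldha (0.0418), Pdk1 (0.0402), Slc2a3 (0.0233) and Hk1 (0.0449) added.

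Slc16a1 and Galk1 kept their direction in all 15 alternatives but not always their call. The count of 2 of the 40 genes lower became 1 in limma-trend and by the largest adjusted p of the 3 tools, and 0 with library size only and with offsets from effective lengths. It ranged from 0 to 2 with libraries left out, at 0 without the libraries numbered 1 or without those numbered 2. The count of 0 higher became 1 (Hk3) in DESeq2, without the filter on low counts, and at an adjusted p below 0.05 with no fold limit.

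Over all genes, the count of lower genes was 548 in DESeq2, 78 in limma-trend and by the largest adjusted p, 25 with library size only, 8 with effective-length offsets, 378 without the filter and 523 at an adjusted p below 0.05, with 10 to 114 with each number left out in turn and 130 without wt/wt library 1 and without the block. The count of higher genes was 645 in DESeq2, 49 with library size only, 24 with effective-length offsets, 524 without the filter and 689 at an adjusted p below 0.05, with 49 to 162 with each number left out in turn and 113 without wt/wt library 1 and without the block.

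Log2 fold changes near 0 turned sign. Pkm was 0.0060 without the block, 0.013 with library size only, 0.013 without the filter and 0.025 with at least 10 counts in every library. With the libraries of each number left out in turn, Pkm ran from -0.15 to 0.072 (0.063 without those numbered 1), Pfkfb3 from -0.42 to 0.016, Aldoc from -0.38 to 0.082 (0.00015 without those numbered 2), Pdha1 from -0.035 to 0.089, Pdhb from -0.27 to 0.047 and G6pdx from -0.087 to 0.021. None of these genes was called. Other uncalled log2 fold changes moved by over 1.5 times, such as Gapdh (-0.18), Gpi1 (-0.09), Ldha (-0.36), Pdk2 (0.27) and Taldo1 (0.05) without the libraries numbered 1, Pgd (-0.11), Tkt (-0.24) and Pfkfb4 (0.05) without those numbered 2, Mpc1 (-0.04) without those numbered 4, and Ldhb (0.56) without wt/wt library 1 and the block.

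Of the differences in TPM (fl/fl minus wt/wt), with libraries left out, the Pfkl share ran from 3.20 to 7.08 percentage points, the lactate sum from -512.5 to -242.1, the non-oxidative pentose phosphate sum from -24.3 to 55.4 and the sum of all 40 genes from -1605 to -443.0. The lower glycolysis sum, -779.5 with all libraries, was -224.6 without the libraries numbered 1. Over protein-coding transcripts alone, an alternative chosen after seeing the data, the Pdk1 share differed by -0.77 percentage points in place of -7.53, since most Pdk1 TPM is on other transcripts, and the Eno1 share by 0.43 in place of 0.34. The other causes were not tested. Scaling moved the median of all genes by less than 0.03 on the log2 scale. The low total of wt/wt library 1 limits scarce genes, such as Ldhb with 4 counts there, Aldoc with 13 and Pfkfb4 with 28.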
